A study of Mus musculus with 13 samples.

Results

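Homeobox genes encode transcription factors that bind DNA through a homeodomain, and Pax genes encode related factors with a paired domain. Listed sites named for 15 families of such genes outside the Hox clusters are described here (Lhx, Nkx, Pax, Six3 and its relatives, Irx, Dlx, Meis, Pbx, Pitx, Otx, Barx, Msx, Emx, Gsx and Vax). A site was taken when its gene symbol began with a family name followed by a digit. This gave 165 of 23904 listed sites, at 60 of 9100 gene symbols, 6 of them antisense or opposite-strand transcripts. Liver DNA of 13 mice, each labelled only by tissue and diet, was measured by capture-based bisulfite sequencing, in which the share of unconverted reads at a cytosine gives its methylation level. The groups were 7 mice fed low fat/low sucrose and 6 mice fed high fat/high sucrose. The labels state no strain, sex, age or time on the diet. The question put to these sites is how their methylation differed with diet.

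These factors set the identity of organs and of regions of the embryo, and most are little used in adult liver. Their genes often lie in long stretches rich in CG dinucleotides (CpG islands), which are largely unmethylated and, where the gene is off, often held by Polycomb proteins. The flanks of islands, called shores, vary more in methylation between tissues. Methylation is read here at CG dinucleotides, and gains or losses at these genes say nothing by themselves about their expression, which was not measured.

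Each listed site carries the authors' average methylation for each diet, a listed difference (the high fat/high sucrose level less the low fat/low sucrose level, in percentage points) and a q-value, the authors' p-value after a correction whose method is unstated. Sites entered the table only with a q of at most 0.01 and a difference of at least 5 points, so every site below passed the authors' test. Values per mouse and read depth were not analysed here. No spread between mice is therefore given, and a difference at a single site cannot be set against it. Whether a change reflects methylation within hepatocytes or the mix of cells in the liver cannot be told apart in such bulk DNA. Rises and falls below are differences between mice on different diets, not changes within a mouse. Positions are in mm9. The gene of a site was read as the one with the nearest listed start, so a site need not lie in it.

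The promoters of 3 of these genes are shown as examples of high, middle and low CG content. Windows of the 250 bases before the transcription start came from RefSeq (GRCm38.p6, a later build than that of the sites), which held a window for 40 of the 60 symbols. Capitals mark every CG, on which both strands can be methylated. The windows are Lhx1 (chr11:84525535-84525784, minus strand), with a listed site in its promoter, Vax1 (chr19:59170398-59170647, minus strand), whose only site lies in an island just after the start, and Lhx9 (chr1:138842445-138842694, minus strand), the gene with the most listed sites.
Lhx1: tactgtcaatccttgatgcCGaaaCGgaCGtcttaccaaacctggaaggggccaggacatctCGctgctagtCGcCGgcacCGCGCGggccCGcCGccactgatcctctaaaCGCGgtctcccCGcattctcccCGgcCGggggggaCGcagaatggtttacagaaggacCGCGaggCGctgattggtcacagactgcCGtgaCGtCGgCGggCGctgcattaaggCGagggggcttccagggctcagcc
Vax1: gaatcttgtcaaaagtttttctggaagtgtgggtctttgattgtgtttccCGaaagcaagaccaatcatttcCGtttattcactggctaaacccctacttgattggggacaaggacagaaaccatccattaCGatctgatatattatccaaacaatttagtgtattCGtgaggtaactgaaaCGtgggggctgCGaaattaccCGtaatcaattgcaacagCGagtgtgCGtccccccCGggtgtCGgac
Lhx9: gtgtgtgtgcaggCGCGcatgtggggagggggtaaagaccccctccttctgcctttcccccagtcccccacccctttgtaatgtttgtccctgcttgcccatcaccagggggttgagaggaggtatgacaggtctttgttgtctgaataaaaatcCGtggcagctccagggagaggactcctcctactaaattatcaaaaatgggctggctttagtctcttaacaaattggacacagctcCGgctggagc
The letters CG occurred 26 times in the Lhx1 window, 11 times in that of Vax1 and 4 times in that of Lhx9. The 52 windows found for these genes held from 3 to 40, with a median of 15, and each held CG at least once. Over all 32851 RefSeq windows of this length the median was 6, and 92.1% held CG at least once. Most listed sites lie outside such windows, those of Lhx9 and Vax1 included. Counted back from the RefSeq start, the listed distance of the Lhx1 site, -24 bp (the authors' deposited table), falls on a CG of the window. The start that the authors used may differ from that of RefSeq.

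Methylation at these genes was higher in high fat/high sucrose mice at most listed sites. Of the 165 sites 120 were higher and 45 lower, 72.7% higher, where 57.6% of all listed sites were higher. With q under 0.001, 24 of 29 were higher (82.8%), against 59.8% of all listed sites so limited. The median rise was 10.6 points and the median fall -9.51 points, against 11.7 and -11.6 points over all listed sites. Their level in low fat/low sucrose was low. The median average in low fat/low sucrose was 10.9% at these sites, against 47.4% over all sites, and on high fat/high sucrose it was 19.6%, against 51.0%. The means were 24.9% and 30.0% at these sites and 48.4% and 50.3% over all sites. The share was not tested.

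**Figure D1:**
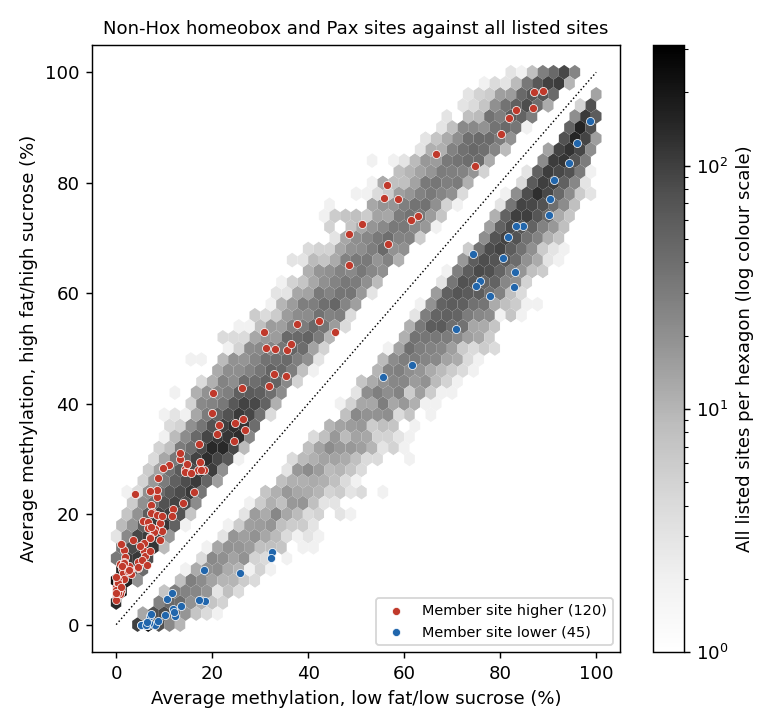
Average methylation of each listed site in low fat/low sucrose (x axis, %) against high fat/high sucrose (y axis, %), with the 165 homeobox and Pax sites in colour (red, 120 higher; blue, 45 lower) over the density of all 23904 listed sites in grey (log colour scale). The coloured sites crowd the lower left corner, with a median of 10.9% in low fat/low sucrose.

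The direction of a listed site follows its level, and the share of rises was read level by level. Among sites whose 2 averages had a mean under 10%, 43 of 63 homeobox and Pax sites were higher (68.3%), and 68.3% of all listed sites in that range were. From 10 to 20% the count was 28 of 32 (87.5%), against 82.1% of all sites, and from 20 to 40% it was 23 of 25 (92.0%), against 85.0%. Up to 40% the shares lay nearer to those of all sites than at higher levels. From 40 to 60% the count was 11 of 13 (84.6%), against 59.5%, from 60 to 80% it was 9 of 20, against 32.5%, and from 80 to 100% it was 6 of 12, against 35.7%. If each member site had the share of all sites at its own level, 66.6% would be higher, against the 72.7% observed. Level thus moved together with part of the gap from 57.6%, and its part in the result was not tested.

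**Figure D2:**
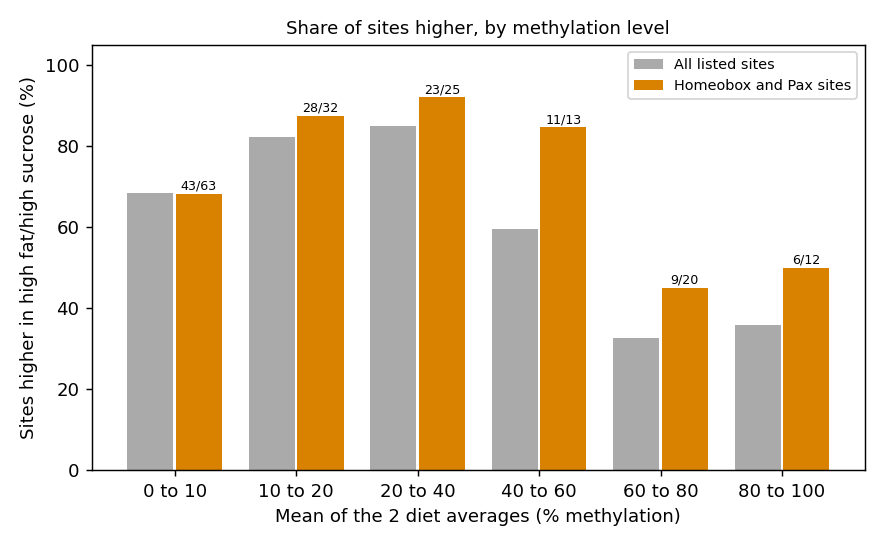
Share of sites higher in high fat/high sucrose (y axis, %) by the mean of the 2 diet averages (x axis, % methylation) for all listed sites (grey) and for homeobox and Pax sites (orange, with counts higher of total). The shares are alike under 10% (68.3% in both) and those of the homeobox and Pax sites differ most from the rest from 40% upwards, on 13, 20 and 12 sites.

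A limit of 5 points leaves no room for a fall where the low fat/low sucrose level is lower than that. The low fat/low sucrose average was under 5% at 40 of the 165 sites (24.2%), against 7.38% of all sites. The high fat/high sucrose average was under 5% at 22 sites (13.3%), against 3.96% of all sites. Where both averages were 5% or more, 80 of 104 sites were higher (76.9%), against 56.5% of all listed sites so limited. An average of exactly 0 was listed at 15 sites, 8 for low fat/low sucrose and 7 for the other diet. How many mice carry the difference at such sites cannot be seen without values per mouse.

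Most of these sites lay in CpG islands and their shores. Islands held 42 sites (25.5%) and shores 61 (37.0%), 103 sites (62.4%) together, against 7.12%, 20.5% and 27.6% of all listed sites. Promoters held 33 of the 165 sites, against 17.5% of all sites. Among sites that differed by 10 points or more, promoters held 6 of 81 (7.41%), against 14.1% of all sites so limited, so the promoter share was above that of all sites without this limit and below it with it. All 33 promoter sites also lay in an island or shore, as did 68.0% of the promoter sites in the whole table. Introns held 73 sites (44.2%, against 49.1% of all sites) and exons 21 (12.7%, against 13.3%), while 69 had no gene feature (41.8%, against 34.4%). Sites over 10000 bp from the listed start made up 35.8% (59 sites), against 47.6% of all sites. Sites that did not pass the authors' limits were not analysed here, so these shares do not say how often islands of these genes changed.

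**Figure D3:**
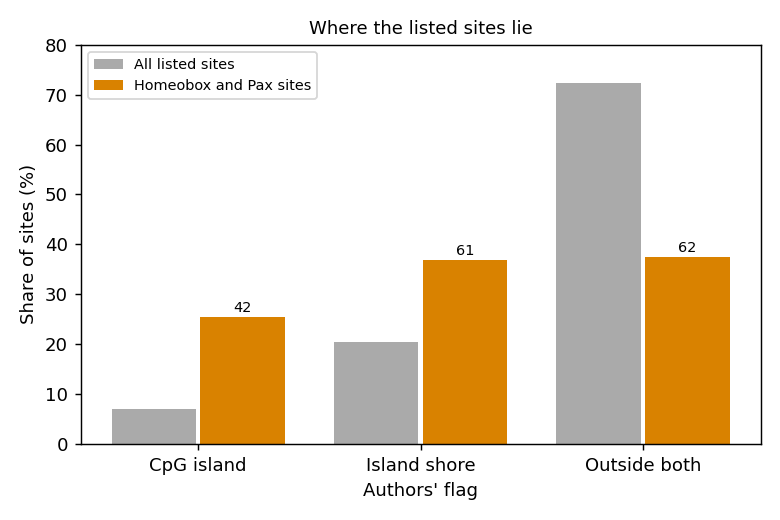
Share of listed sites (y axis, %) in CpG islands, in island shores and outside both (x axis, the authors' flags) for all listed sites (grey) and for homeobox and Pax sites (orange, with the number of sites). Of the homeobox and Pax sites, 25.5% lie in islands and 37.0% in shores, against 7.12% and 20.5% of all sites.

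Rises made up more of the shore sites than of the island sites. In shores 52 of 61 sites were higher (85.2%), against 65.7% of all shore sites, and the mean average was 16.5% with low fat/low sucrose, against 24.96% with high fat/high sucrose. In islands 27 of 42 were higher (64.3%), against 67.3% of all island sites, and the mean averages were 6.54% and 8.89%. From level alone the share higher would be 73.5% in the shore sites and 69.6% in the island sites. In promoters 25 of 33 were higher (75.8%, against 65.2% of all promoter sites), in introns 56 of 73 (76.7%, against 55.6%) and in exons 17 of 21 (81.0%, against 62.1%). Within 10000 bp of a start 79 of 106 were higher (74.5%, against 59.9%), and beyond it 41 of 59 (69.5%, against 55.1%). Islands and shores together had 79 of 103 sites higher (76.7%, against 66.1%), and sites outside both had 41 of 62 (66.1%, against 54.4%). Upstream of the listed start 32 of 53 were higher (60.4%, against 57.0%). From level alone the share would be 63.0% upstream, above that observed. It would be 71.1% in promoters, 68.5% in introns and 71.0% in exons. Within 10000 bp of a start it would be 71.8% and beyond it 57.3%. For islands and shores together it would be 71.9%, and outside both 57.7%. The difference between shores and islands was not tested, as sites of the same mice and genes are not replicates.

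Sites were higher more often than lower in 14 of the 15 families, Meis with its single site being the other. Of all listed sites 57.6% were higher. In families with more than 3 sites, the share ran from 57.1% (Dlx and Pbx, 4 of 7 each) to 85.7% (Barx, 6 of 7). Emx was at 58.3%, with Emx1 at 2 of 4, Emx2 at 2 of 5 and the opposite-strand transcript Emx2os at 3 of 3. With neighbouring sites joined, Pbx had 3 of 6 clusters higher and Lhx 11 of 16. Of all homeobox and Pax clusters 69.9% were higher, against 55.6% of all clusters. Of the 60 genes, 20 had 1 site (13 higher, 7 lower) and 40 had 2 or more. Of those 40, 15 had every site higher (37.5%), 1 had every site lower (2.50%) and 24 were mixed. Among all genes with 2 or more listed sites, 28.9% had every site higher and 16.9% every site lower. Neighbouring sites may share reads and are not independent.

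**Figure D4:**
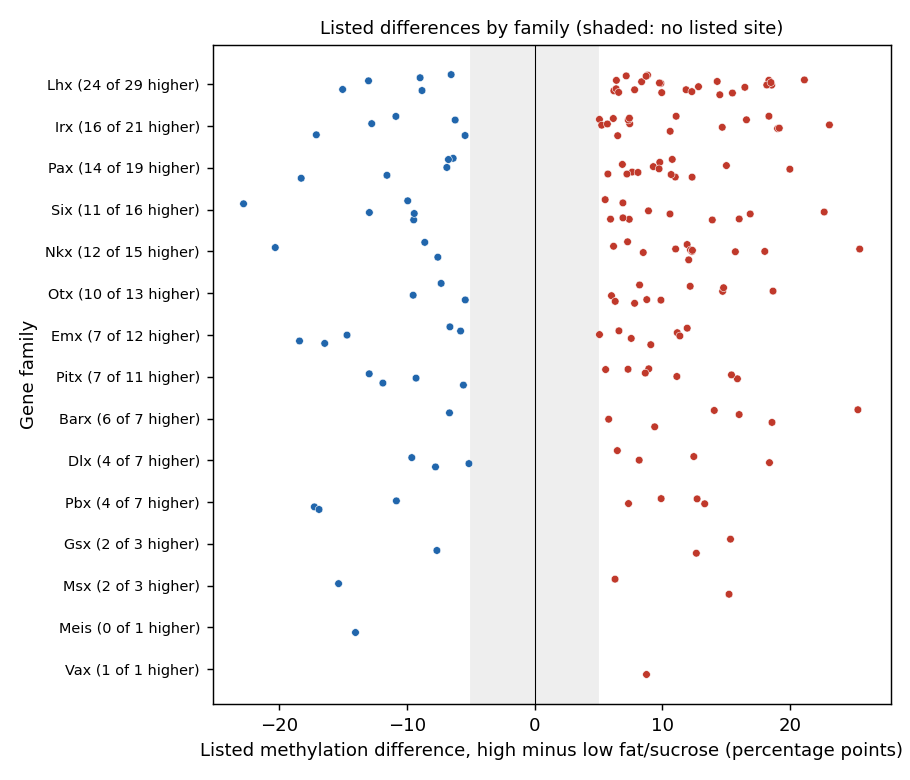
Listed methylation difference (x axis, percentage points, high minus low fat/sucrose) of each of the 165 sites by gene family (y axis, with the count higher), red for higher and blue for lower, spread vertically for legibility. Grey shading covers -5 to 5 points, where the table lists no site, and Lhx has 24 of 29 sites higher (11 of 16 clusters).

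The Lhx genes, which encode LIM homeodomain factors of the brain, eye, gonad and pituitary, had the most sites and 24 of 29 were higher. With neighbouring sites joined, 11 of 16 Lhx clusters were higher. Lhx9, needed to form the gonad, had 9 sites on chromosome 1 from 140737341 to 140738105, a stretch of 765 bp, and all 9 were higher. Their averages ran from 2.77 to 17.0% in low fat/low sucrose and from 10.7 to 31.0% with high fat/high sucrose, per the authors' deposited table. All 9 carry the intron flag and lie in 1 cluster, so they count as 1 region. The site nearest the start, in the promoter and island, went from 2.77% to 10.7%, per the authors' deposited table. The strongest Lhx9 site, at 140737382, averaged 13.4% and 31.0%, 18.5 points apart (q = 3.1e-07), per the authors' deposited table. The weakest, at 140737463, averaged 5.99% and 12.4%, 6.40 points apart, per the authors' deposited table.

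Lhx6, which directs interneurons of the forebrain, had 6 of 6 sites higher in 3 clusters. A run of 4 of them on chromosome 2 at 35946210 to 35946513 went from a mean average of 23.2% to 34.5%, with listed differences of 8.85 to 16.5 points. The other Lhx6 sites rose by 18.3 points at 35949329 and by 15.5 points at 35957628, the latter a shore site 1953 bp into the gene, per the authors' deposited table. Low fat/low sucrose levels in the run fell from the shore into the island, from 45.6% at 35946210 to 6.70% at 35946457 (the authors' deposited table). The rises were larger at the island sites of the run (14.3 and 16.5 points) than at its shore sites (8.85 and 11.9 points), per the authors' deposited table.

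**Figure D5:**
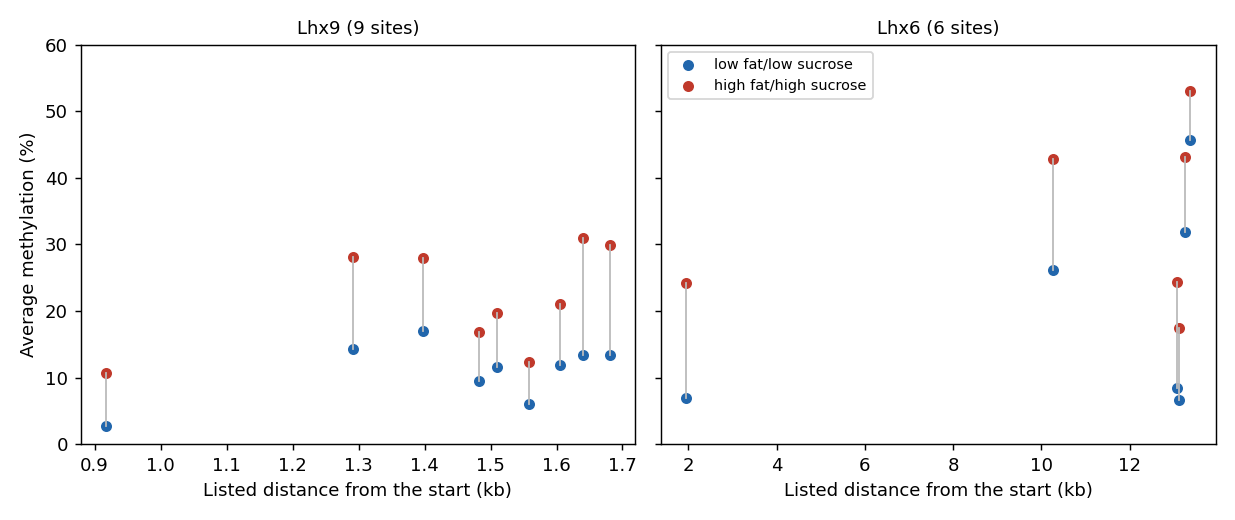
Average methylation (y axis, %) of each listed site of Lhx9 (left, 9 sites) and Lhx6 (right, 6 sites) in low fat/low sucrose (blue) and high fat/high sucrose (red), against the listed distance from the start (x axis, kb), with a grey line joining the 2 averages of a site. The red point lies above the blue at every site of both genes.

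Lhx2, a factor of eye and forebrain that is also a marker of hepatic stellate cells, had 4 of 4 sites higher in 3 clusters. The largest rise at Lhx2 was 14.5 points, from 35.6% to 49.7%, at an exon site on chromosome 2 at 38224823, per the authors' deposited table. Lhx1, a factor of the head organizer and kidney, had a shore exon site on chromosome 11 at 84335329 that went from 48.4% to 70.8%, a rise of 21.1 points (the authors' deposited table). Its promoter island site at 84339059, whose listed distance falls in the window printed above, went from 0% to 6.82%, per the authors' deposited table. The pituitary factor genes went opposite ways: the promoter island site of Lhx3 rose by 7.17 points from 3.05%, while both Lhx4 sites fell, with differences of -13.0 and -8.82 points, per the authors' deposited table. At Lhx5, a forebrain gene, 2 of 5 sites were higher. The promoter island of Lhx5 held sites at 190 and 267 bp from the start that differed by -8.97 and 6.58 points (the authors' deposited table).

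The Nkx genes, which pattern gut, heart, pancreas and neural tube, had 12 of 15 sites higher at 10 symbols. The largest rise of all 165 sites was at Nkx6-1, a factor of pancreatic beta cells, where a shore site on chromosome 5 at 102077586, 16145 bp from the start, averaged 30.9% and 53.0%, 25.5 points higher with high fat/high sucrose, per the authors' deposited table. Of the other Nkx6-1 sites 2 were higher, by 12.3 and 7.28 points, and 1 was lower, with a difference of -7.58 points, per the authors' deposited table. Nkx2-5, a heart factor gene, had an upstream shore site that went from 8.74% to 26.6% (18.03 points) and an island exon site that went from 0.893% to 11.0% (the authors' deposited table). In this family 10 of 15 sites lay in islands or shores.

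The remaining Nkx values cover gut, skeleton and nervous system. Nkx2-3, of spleen and gut, had the family's smallest p, at a site on chromosome 19 at 43696728 that went from 48.5% to 65.1% (q = 2.49e-05), per the authors' deposited table. Promoter shore sites rose by 12.2 points at Nkx3-2, a skeletal factor, and by 11.9 points at Nkx1-2, per the authors' deposited table. Another Nkx1-2 site rose by 12.1 points and the only site of Nkx6-3, outside islands, by 12.4 points (the authors' deposited table). Falls were listed at Nkx6-2, a glial and neuronal factor (32.6% to 13.2%, -20.3 points), and at Nkx2-9 (11.9% to 2.91%), per the authors' deposited table. The Nkx6-2 site lay 7513 bp upstream of its listed start, per the authors' deposited table.

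The Irx genes, Iroquois factors that lie in a pair of clusters and pattern heart, limb and brain, had 16 of 21 sites higher. Irx5 had 5 of 5 higher in 4 clusters, with the largest at chromosome 8, position 94886967, from 10.9% to 29.0% (19.2 points), per the authors' deposited table. Its neighbour Irx3, studied for its part in fat tissue, had an island exon site that went from 25.7% to 9.26% (-17.1 points) and a distant site, 112736 bp from the start, that rose by 7.45 points, per the authors' deposited table. The promoter island site of Irx5 went from 0.357% to 5.29%, per the authors' deposited table. Irx6, the third gene of that cluster, carried the smallest p of all 165 sites: a site on chromosome 8 at 95267188, outside islands and 68889 bp from the start, averaged 56.5% and 79.5% (23.1 points, q = 3.05e-08), per the authors' deposited table. At Irx6 3 of 4 sites were higher.

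In the other Iroquois cluster, Irx4, a gene of the heart ventricle, had 5 of 6 sites higher. Its shore sites on chromosome 13 at 73402835 and 73402857 rose by 19.03 and 14.7 points and the shore exon site at 73406887 by 16.6 points, per the authors' deposited table. Irx1 and Irx2 each had 1 site higher and 1 lower. The 2 Irx1 sites lay in the promoter island at near-zero levels, from 0% to 5.76% and from 6.74% to 0.238%, per the authors' deposited table. The 2 Irx2 island sites lay 56 bp apart and differed by -5.45 and 18.4 points (the authors' deposited table).

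Pax genes, whose factors build eye, kidney, thyroid, muscle and thymus, had 14 of 19 sites higher at 6 genes. Pax9, of tooth and thymus, had 5 of 6 higher, and its site of smallest p, a shore site on chromosome 12 at 57791457, went from 7.31% to 17.7% (q = 3.4e-05), per the authors' deposited table. Its 2 promoter sites lay 50 bp apart and differed by 6.87 and -6.75 points, per the authors' deposited table. Every listed site was higher at Pax8 (3 of 3), a thyroid and kidney factor, at Pax6 (2 of 2), the eye factor, and at Pax3 (1 of 1), of neural crest and muscle. The largest of these rises was 15.02 points at Pax6, 52639 bp upstream of the start, followed by 12.3 points at a Pax8 shore site (the authors' deposited table). The former site carries the intron flag although it lies upstream of Pax6 (the authors' deposited table), so it may lie within another gene. The promoter shore sites of Pax6 and Pax3 rose by 8.10 and 7.64 points, per the authors' deposited table.

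Pax2, a kidney and ear factor gene, was the only listed Pax gene with more sites lower than higher, with 2 of 5 higher. Its 3 lower sites all lay in CpG islands 22550 to 73270 bp upstream of the start, with listed differences of -6.88, -18.3 and -11.6 points, per the authors' deposited table. The island at -39947 bp was methylated at the outset, at 77.9%, and went to 59.5% (the authors' deposited table). The largest Pax2 rise was 19.99 points, from 51.1% to 72.6%, at an intron site on chromosome 19 at 44874889, per the authors' deposited table. Pax7, of muscle stem cells, had 1 island site higher and 1 lower. Pax5, the B cell factor gene, had no listed site.

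Six3 and its relatives, partners of the Eya phosphatases in eye, ear and muscle, had 11 of 16 sites higher. Six3, a forebrain and eye factor, had 8 sites spread over a wide region, 5 of them higher. The largest fall of all 165 sites was at a Six3 site on chromosome 17 at 85795206, from 82.9% to 61.1% (-22.8 points), listed 217742 bp upstream of the start, per the authors' deposited table. That Six3 site and its neighbours at -259991 and -172113 bp, also lower, carry the intron flag (the authors' deposited table), so they may lie within another gene. The 5 higher Six3 sites lay nearer, from 126315 bp upstream to 25700 bp downstream, and averaged 0 to 33.0% in low fat/low sucrose, per the authors' deposited table. Six5 had a shore exon site that went from 55.9% to 77.1% (22.7 points), a promoter island site that went from 0% to 5.72% and a site 6259 bp from the start that fell by 12.9 points, per the authors' deposited table. Six4 had 1 site each way.

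Otx genes, of forebrain and retina, had 10 of 13 sites higher. Otx2 had 4 of 6 higher, and its promoter held 3 sites: shore and island sites that rose by 8.78 and 9.89 points and an island site 34 bp before another start that went from 7.08% to 1.49% (the authors' deposited table). Otx1 had 3 of 4 higher, led by a shore exon site with 8.54% and 19.8%, per the authors' deposited table. The transcript opposite Otx2, Otx2os1, had 3 of 3 higher, the largest from 66.7% to 85.2% (18.7 points), per the authors' deposited table. The 6 antisense or opposite-strand symbols held 10 sites, 9 of them higher. Such sites cannot be assigned to a strand's gene from methylation alone.

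Emx genes, of cerebral cortex and urogenital tract, had 7 of 12 sites higher. The opposite-strand transcript Emx2os had 3 of 3 higher, and Emx2 had 2 of 5. A pair of Emx2 sites 60 bp apart on chromosome 19 at 59601126 and 59601186, 67948 and 68008 bp from the start, were lower, with differences of -18.4 and -16.4 points, from 83.1% and 70.8% (the authors' deposited table). The Emx2 promoter island site went from 5.21% to 0%, per the authors' deposited table. At Emx1 2 of 4 sites were higher, an intron pair that rose by 11.2 and 12.0 points, per the authors' deposited table.

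Barx1, a stomach factor gene, had the second largest rise of the homeobox and Pax sites. Its promoter shore sites on chromosome 13 at 48759253 and 48759266 went from 19.95% to 38.3% (18.6 points) and from 20.1% to 42.0% (25.3 points), per the authors' deposited table. In the same promoter an island site at 48758814 went from 6.20% to 0%, per the authors' deposited table, so the run of 3 sites was mixed. The promoter shore site of Barx2 went from 8.46% to 23.1%, per the authors' deposited table. The Barx1 site of smallest p, 7016 bp upstream of the start, rose by 14.1 points from 5.69% (the authors' deposited table). Across both Barx genes 6 of 7 sites were higher.

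Pitx genes, of pituitary and hindlimb development, had 7 of 11 sites higher. Pitx3, a factor of lens and dopamine neurons, had 3 island sites in its promoter within 313 bp, with differences of 15.4, 7.32 and -9.29 points, per the authors' deposited table. Pitx1 had 1 of 3 higher, with a fall of -11.9 points at an upstream shore site (the authors' deposited table).

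Pbx and Meis genes, which belong like the Irx genes to the TALE class of homeobox genes and whose proteins bind DNA beside Hox factors, together had 4 of 8 sites higher. The single Pbx2 site, in a shore 1060 bp before the start, went from 32.2% to 12.1% (-16.9 points), per the authors' deposited table. It carries the exon flag although it lies upstream of Pbx2 (the authors' deposited table), so it may lie within another gene. All 3 Pbx3 sites were higher, by 7.35, 9.91 and 13.3 points, per the authors' deposited table. The single Meis3 site fell by 14.1 points from 84.8%, per the authors' deposited table.

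The small families held few sites each, in both directions. Dlx genes, of limb, face and forebrain, had 4 of 7 sites higher, the largest at a Dlx3 shore site (58.8% to 77.1%, 18.4 points), per the authors' deposited table. The Dlx site of smallest p, named for Dlx2 but 80233 bp upstream of its start, rose by 12.5 points, per the authors' deposited table. In Dlx promoters an island site of Dlx2 went from 1.08% to 7.97% and a shore site of Dlx5 from 6.17% to 0.303%, per the authors' deposited table. At Msx2, a factor of skull and limb, sites 30432 and 3962 bp from the start moved by 15.2 and -15.4 points (the authors' deposited table). The Msx1 site rose from 0%, and Gsx2 and Gsx1, of the ventral forebrain, had 2 of 3 sites higher. The Gsx2 site went from 6.54% to 18.5%, per the authors' deposited table. Vax1, of the optic stalk, went from 0% to 8.69% at its only listed site, in an island, per the authors' deposited table. Promoter sites of Six3os1 and Nkx2-2as also rose from under 2%, to 6.88% and 9.40% (the authors' deposited table).

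Some close neighbours went opposite ways. Of 17 pairs of adjacent sites at most 100 bp apart, 14 had the same sign (82.4%), against 97.1% of 3313 such pairs in the whole list. The 3 opposed pairs, chosen after their values were seen, were at Pax9, Irx2 and Lhx5, all in islands or shores with 1 average under 1% at 1 or both sites. The difference in share was not tested.

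Related genes of the same regulatory systems had their own counts. Hox genes had 51 of 61 sites higher (83.6%) at 24 genes and other homeobox genes 121 of 175 (69.1%) at 51, with Onecut1 at 15 of 21. Sox, Tbx and Gata genes had 75 of 111 (67.6%), with Gata2 at 15 of 15 and Gata4 at 3 of 11. Lists of partners and relatives of the factors had few sites or, when pooled, no lean to rises. LIM cofactors and relatives had 17 of 35 higher (48.6%), and relatives and a partner of Pbx and Meis 2 of 5. The Eya and Dach partners of Six3 and its relatives had 6 of 8. Within the LIM list, the relatives Lmx1b, Isl2 and Isl1 had 4 of 7, 4 of 6 and 4 of 5 higher. The pooled share is therefore not that of the cofactors alone. Polycomb genes, whose proteins occupy many silent homeobox genes, had 29 of 48 higher (60.4%), with Cbx7 at 4 of 7, Cbx8 at 6 of 7 and Jarid2 at 2 of 5. Against the 57.6% of all sites, Hox genes had the highest share of these lists. Levels differed too: the mean average in low fat/low sucrose was 18.2% at Hox sites, 34.8% at other homeobox sites and 52.4% at Polycomb gene sites.

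Markers of liver cell types moved in both directions beside these results. Hepatocyte markers had 21 of 22 sites higher, endothelial markers 13 of 30, cholangiocyte markers 3 of 9 and lymphocyte markers 4 of 12. Of all listed sites 57.6% were higher. Levels differed between these lists, and direction follows level. The mean low fat/low sucrose average was 24.7% at hepatocyte markers. At endothelial, cholangiocyte and lymphocyte markers it was 55.6%, 61.7% and 51.6%. Stellate cell and fibroblast markers had 6 of 8 higher, of which the 4 Lhx2 sites are members here. Kupffer cell and neutrophil markers had no listed site. The part of cell mixture in the values at homeobox and Pax genes was not tested.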

How the data were processed

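Liver DNA of 13 mice was captured and bisulfite sequenced. Per the labels' protocols, an Agilent methylation kit and a mouse exon capture design were used. Among tools, CASAVA 1.8, methylKit, Bismark and Trim Galore are named in the submitters' processing notes, with the build mm9 and no settings. A prefix in the sample titles, whose meaning the labels do not give, occurs in both diets. Per the file headers, the authors' deposited table gives p-values and q-values, signed differences in points, average percent methylation per diet, distances and location flags. The test, weighting and coverage minimum are unstated there.

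Symbols were matched to the family names plus a digit; the rule's final full stop was read as punctuation. Of 60 symbols, 58 were current in RefSeq and 2 were synonyms, all on the listed chromosome. The authors' averages and differences were only counted and summarised (Python 3.11.15, pandas 2.3.3), with sites within 1000 bp joined to clusters, represented by their site of smallest p. Counting and joining were tested on simulated data. No test was run, since values per mouse were not analysed. Depth is unknown. Members, lists and the rule for named sites (the 6 genes with most sites, the 10 largest rises and falls, the smallest p per family, promoter sites in islands or shores, runs of 3 or more) were chosen with earlier results of these data known; other sites of a described gene are named after their values were seen. Some genes that this rule takes are not reported here.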

Additional observations from a re-analysis of the deposited data

How the results depend on the processing

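The share of homeobox and Pax sites higher in high fat/high sucrose was 72.7% and lay between 69.9% (clusters, against 55.6% of all clusters) and 76.9% in every alternative run except with q under 0.001. There, 24 of 29 were higher (82.8%), against 59.8% of all sites with such a q; the cause was not tested. It was 70.0% with equal weight per gene, 71.2% without Lhx9 and 71.6% without antisense transcripts. In alternatives chosen after the data were seen, it was 70.6% without the Lhx genes, 70.5% without runs of sites, 74.1% within 50000 bp of a start and 76.9% with both averages 5% or more; the share that all sites have at the same levels, 66.6%, was also added then. At 10 points or more (81 sites), 53.1% lay in islands or shores and 7.41% in promoters, against 62.4% and 33 of 165 sites without that limit; over all listed sites, the shares went from 27.6% to 23.8% and from 17.5% to 14.1%. The cause was not tested. Within 10000 bp of a start the mean low fat/low sucrose level was 13.5%, against 24.9%. Genes with all sites in 1 direction numbered 16, or 17 by clusters. The difference of the 2 averages had the listed sign at all 165 sites. Depth limits every average by an unknown amount. No paired analysis was possible because the table compares whole diets, and no mouse has a value of its own in it.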
